A study of Homo sapiens with 8 samples.

Results

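The simple keratins KRT7, KRT8, KRT18 and KRT19 and 6 genes that define epithelial identity, EPCAM, CDH1, ESRP1, GRHL2, ELF3 and ST14, were examined by RNA sequencing in endothelial cells made from human induced pluripotent stem cells. They were chosen by gene symbol and were 10 of the 30386 genes in the deposited table. All 8 samples came from WTC-TJP1, an established stem cell line. In 4 samples, labelled iEC, the cells had been differentiated into endothelial cells, and in the other 4, labelled iREC, into retinal endothelial cells. All were taken at passage 1 without a further treatment in the labels. The agents used in either differentiation are not given in the sources used here, and both groups carry the same cell type label, endothelial cells. Each group has samples lettered C, D, E and F. Nothing in the labels says that these came from separate differentiations, so p-values measure the spread between these samples, which may be technical. All come from 1 line.

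Keratins build the intermediate filaments of epithelial cells, and a filament needs a type II keratin (KRT8 or KRT7) paired with a type I keratin (KRT18 or KRT19). KRT8 and KRT18 are the pair of simple, single-layered epithelia, while KRT7 and KRT19 are added in ducts, mesothelium and other linings. E-cadherin (CDH1) and EPCAM hold epithelial cells together, GRHL2 and ELF3 are transcription factors of epithelia, ESRP1 sets epithelial splicing and ST14 encodes matriptase, a membrane serine protease. Endothelial cells line vessels and use VE-cadherin (CDH5) in place of E-cadherin, and their main intermediate filament protein is vimentin (VIM).

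The keratins are partly alike in sequence. Long identical runs matter for reads that have to be assigned to 1 gene, and the longest run below was with a pseudogene. The coding sequence of KRT7 was identical to that of KRT8 at 78.8% of 1073 aligned bases, with a longest identical run of 41 bases. KRT19 and KRT18 matched at 67.6% of 899 aligned bases, with a longest run of 17. KRT8 also has processed pseudogenes, of which KRT8P33 on chromosome 5 matched it at 95.8% of 1420 aligned bases, with a run of 133. The stretches below, 60 bases each from the GENCODE release 29 transcripts and written 5′ to 3′, show where the type I keratins KRT18 and KRT19 are most alike. Capitals in the KRT19 stretch mark the 9 bases that differ from KRT18.
KRT18: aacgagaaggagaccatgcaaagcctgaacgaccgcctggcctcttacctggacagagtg
KRT19: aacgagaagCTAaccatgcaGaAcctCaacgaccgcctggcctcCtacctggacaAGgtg
Both stretches span positions 235 to 294 of the coding sequence, counted from 1 at the first base of the start codon.

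The iEC libraries held 14877502 to 16971865 counts each and the iREC libraries 13739364 to 15987839. Levels below are CPM, counts scaled to a common library total, on libraries scaled by the TMM method, and the floor of detection was set at 3 counts, or 0.178 to 0.215 CPM. Such floors cover counting error only. Groups were compared with edgeR's quasi-likelihood test over 15330 genes that passed a filter on low counts, with Benjamini-Hochberg adjustment over all of them and a call at an adjusted p under 0.05. The endothelial label was checked against 12 endothelial markers, all of which passed the filter. Their summed level was 7314 to 9323 CPM in iEC and 4664 to 10404 CPM in iREC, lowest in iREC F. PECAM1, an endothelial adhesion molecule, was between 493 CPM in iREC F and 2605 CPM in iEC F. Sample iREC F stands apart in the keratins, so results that rest on it are also given without it.

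Among the 10 genes, KRT8, KRT7, KRT18, KRT19 and EPCAM passed the filter. The test called 1 of these 5, KRT7, as higher in iREC, where 13.2% of all tested genes were called higher and 25.0% were called in either direction. CDH1, ESRP1, GRHL2, ELF3 and ST14 were below the filter and were tested only in a fit without it. That fit called CDH1, GRHL2 and KRT7 as higher in iREC, 3 of the 10 genes, where 7.51% of the 30386 genes were called higher and 12.8% in either direction. A gene that passes a filter only through the group in which it is high had to differ, so these counts describe the genes and support nothing further.

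**Figure D1:**
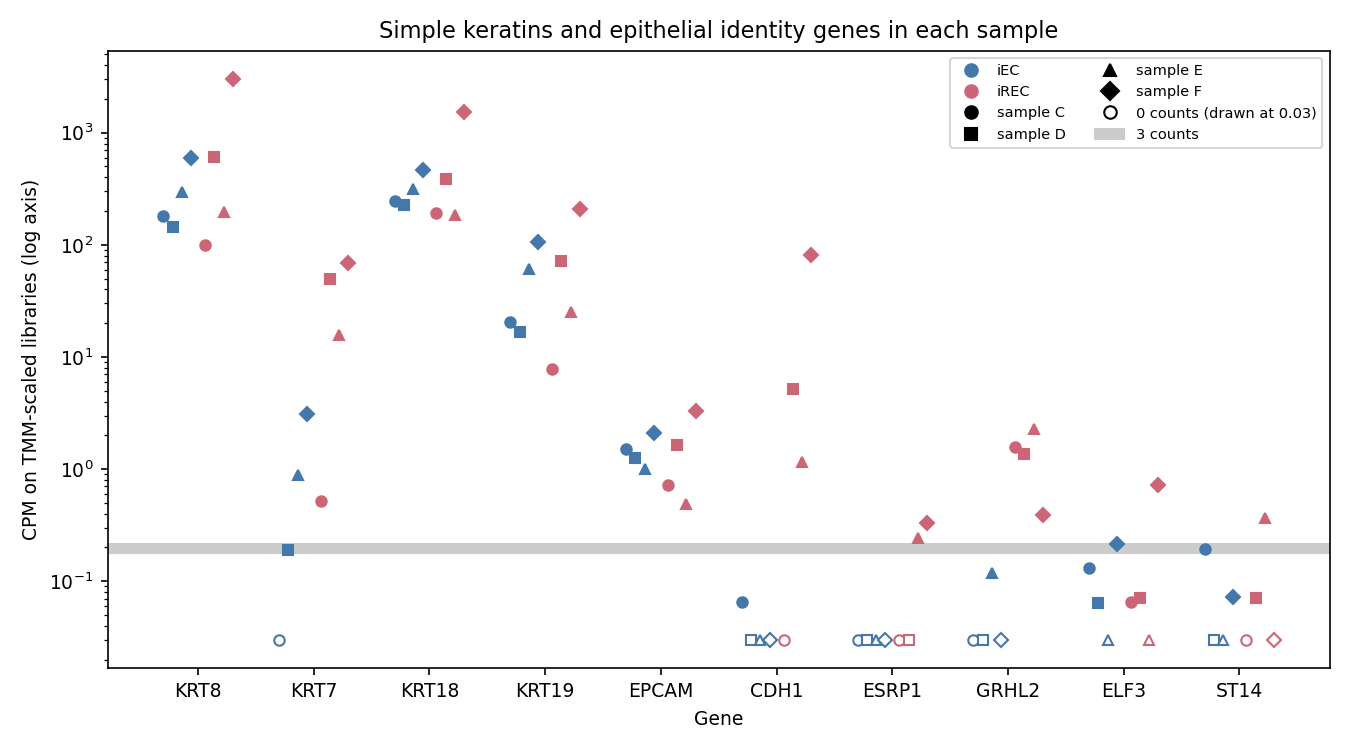
CPM of the 10 genes in each of the 8 samples, on a log axis, with iEC in blue and iREC in red; the marker shape gives the sample letter, open markers are samples with 0 counts and the grey band is 3 counts. KRT8, KRT18 and KRT19 were high in both groups and highest in iREC F, and GRHL2 was the only one of the 10 whose groups did not overlap. Of the genes that passed the filter, which GRHL2 did not, 29.1% did not overlap in either direction.

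KRT8 (ENSG00000170421, GRCh38 chromosome 12, 52897187 to 52949954, minus strand), the type II keratin of simple epithelia, stood at 179 CPM in iEC C, 145 in iEC D, 294 in iEC E and 598 in iEC F. In iREC it stood at 98.6 CPM in C, 602 in D, 195 in E and 3025 in F. The groups overlapped: iREC C held the lowest level of all 8 samples, iREC E lay within the iEC range, and iREC F was 5.03-fold above the next highest sample. Of all tested genes, 0.365% were at least 5-fold higher in iREC F than in any of the other 7 samples. Group means were 304 ± 206 CPM in iEC and 980 ± 1380 CPM in iREC (SD, n = 4 each). The log2 fold change of 1.69 ± 0.96 (SE) did not pass the test (edgeR adjusted p = 0.234). Without iREC F, the iREC mean was 298 ± 267 CPM and the log2 fold change was -0.029 (edgeR adjusted p = 0.979).

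KRT18 (ENSG00000111057, chromosome 12, 52948871 to 52952901, plus strand), the type I partner of KRT8, varied less. Its levels were 246, 228, 317 and 465 CPM in iEC C, D, E and F, and 194, 387, 184 and 1538 CPM in iREC samples C, D, E and F. Samples iREC C and iREC E were below every iEC sample, iREC D was within the iEC range, and iREC F was 3.31-fold above the next highest sample. The means were 314 ± 108 CPM in iEC and 576 ± 648 CPM in iREC (SD, n = 4 each), and the log2 fold change of 0.87 ± 0.65 (SE) did not pass the test (edgeR adjusted p = 0.359). Without iREC F it was -0.30, with an edgeR adjusted p of 0.531.

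KRT19 (ENSG00000171345, chromosome 17, 41523617 to 41528308, minus strand), the smallest type I keratin, stood at 20.5, 16.7, 60.5 and 106 CPM in iEC C, D, E and F. In iREC C, D, E and F it stood at 7.85, 72.2, 25.3 and 207 CPM. As with KRT8, the lowest sample was iREC C and the highest iREC F, and the groups overlapped. The iEC mean was 51.0 ± 41.9 CPM and the iREC mean 78.2 ± 90.3 CPM (SD, n = 4 each), with a log2 fold change of 0.62 ± 0.91 (SE) that did not pass the test (edgeR adjusted p = 0.660). Without iREC F the log2 fold change was -0.54 (edgeR adjusted p = 0.650).

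KRT7 (ENSG00000135480, chromosome 12, 52232520 to 52252186, plus strand), the type II keratin of ducts, mesothelium and other linings, was nearly absent from iEC. It had 0, 3, 15 and 43 counts in iEC C, D, E and F, or 0, 0.190, 0.888 and 3.08 CPM. In iREC it had 8, 699, 255 and 1058 counts in C, D, E and F, or 0.523, 49.9, 15.6 and 69.3 CPM. Samples iREC D, E and F were above every iEC sample, while iREC C was below iEC E and iEC F. The mean rose from 1.04 ± 1.41 CPM in iEC to 33.8 ± 31.4 CPM in iREC (SD, n = 4 each), a log2 fold change of 5.05 ± 1.38 (SE; adjusted p = 0.0258 by edgeR). The call was kept without iREC F, at 4.42 and an edgeR adjusted p of 0.0420. It was lost without iEC C (edgeR adjusted p = 0.0593), iEC D (0.0592), iEC E (0.0751) or iREC D (0.0632), and by limma-voom, with an adjusted p of 0.252. Without iREC C, the iREC sample with few KRT7 counts, the log2 fold change was 5.46, and without iEC F, the iEC sample with the most, it was 6.48. The authors' deposited table gives KRT7 an adjusted p of 0.0103, and DESeq2 run here gave the same rounded value.

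All 4 keratins were highest in iREC F and, within iEC, in iEC F. Over the 10 genes, iREC F was the highest of the 8 samples in 8, all 5 tested genes among them, where 14.7% of all tested genes were highest in that sample. KRT8, KRT7 and KRT19 and, below the filter, CDH1 followed the order F, D, E, C in iREC, from high to low. This order was found in 7.89% of tested genes. Together the 4 keratins took 0.0398% to 0.110% of all counts in the iEC samples, and 0.0296%, 0.113%, 0.0430% and 0.469% in iREC C, D, E and F.

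Compared per length with the deposited FPKM, KRT18 was the most abundant of the 10 genes in both groups, with 97.4 ± 35.9 in iEC and 177 ± 200.5 in iREC (mean and SD of FPKM, n = 4 each). KRT8 followed at 44.4 ± 31.3 and 141 ± 199 FPKM, and KRT19 at 22.0 ± 18.5 and 33.1 ± 38.4 FPKM. The place of KRT18 above KRT8 in iREC rests on the deposited gene lengths, 6881 bases for KRT8 and 3218 for KRT18. By CPM, with no length term, mean KRT8 and KRT18 were 304 and 314 in iEC, and 980 and 576 in iREC. KRT7 was at 0.258 ± 0.355 and 8.15 ± 7.60 FPKM, and EPCAM at 0.578 ± 0.194 and 0.600 ± 0.50 FPKM. In iEC, KRT8 and KRT19, and EPCAM and KRT7, are neighbours in this order whose means differed by less than the larger SD; in iREC this held for every neighbouring pair of KRT18, KRT8, KRT19, KRT7, CDH1 and EPCAM. CDH1, at 3.53 ± 6.40 FPKM in iREC (SD, n = 4) and 13.1 FPKM in iREC F, was at or under 0.0103 FPKM in every iEC sample. GRHL2, ESRP1, ELF3 and ST14 were at or under 0.364 FPKM in every sample.

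**Figure D2:**
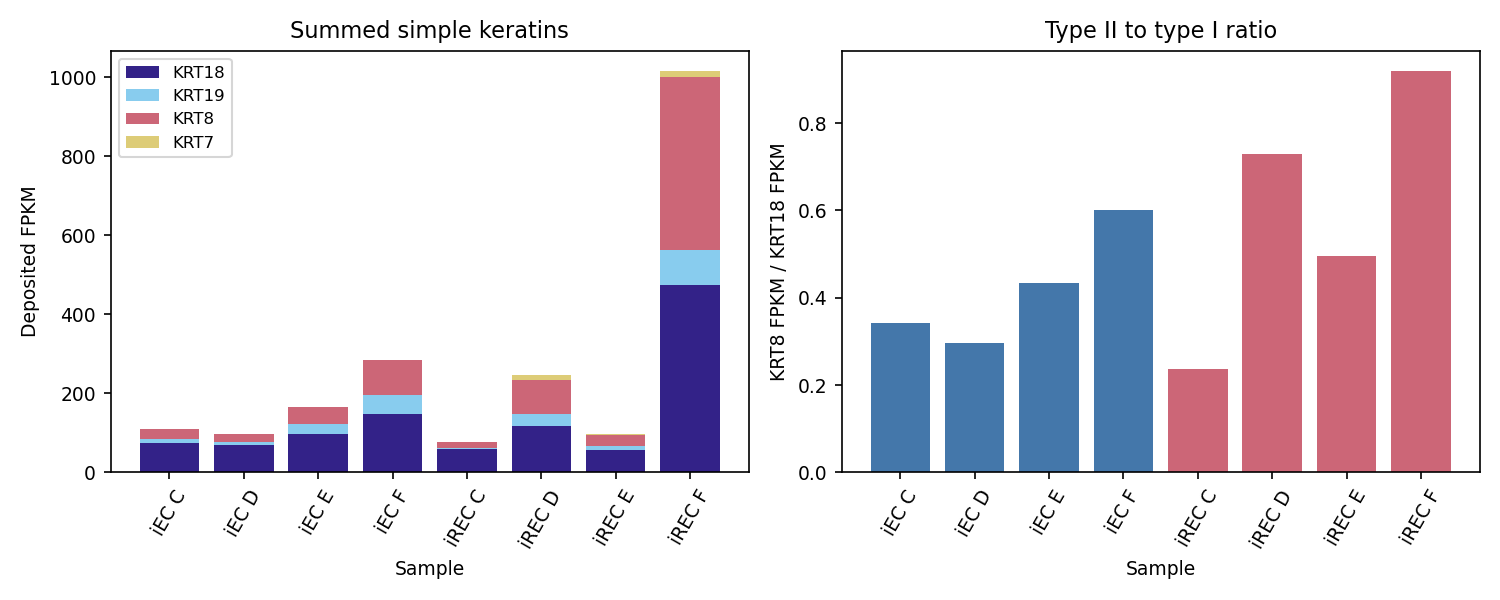
Left, deposited FPKM of KRT18, KRT19, KRT8 and KRT7 stacked for each sample; right, the ratio of KRT8 to KRT18 FPKM in each sample, iEC in blue and iREC in red. The stack of iREC F reached 1016 FPKM, against 76.7 to 285 in the other 7 samples, and the ratio was lowest, 0.238, in iREC C and highest, 0.920, in iREC F.

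Because a filament pairs type II with type I keratins, the ratio of KRT8 to KRT18 FPKM was compared between the groups. It was 0.342, 0.297, 0.433 and 0.602 in iEC C, D, E and F, and 0.238, 0.728, 0.496 and 0.920 in iREC C, D, E and F. The ratio was highest in iREC F and lowest in iREC C, and the groups overlapped. The mean ratio was 0.419 ± 0.135 in iEC and 0.595 ± 0.295 in iREC (SD, n = 4 each). The difference of 0.39 on the log2 scale had an exact two-sided permutation p of 0.457, where the smallest p that 70 assignments allow is 0.0286. The FPKM use deposited gene lengths of 6881 bases for KRT8 and 3218 for KRT18. The ratio of their CPM, with no length term, averaged 0.895 ± 0.288 in iEC and 1.27 ± 0.630 in iREC (SD, n = 4 each). Type II keratins, KRT8 and KRT7 together, made up 21.3% to 31.6% of the summed keratin FPKM in iEC, and 18.5%, 39.8%, 32.1% and 44.6% in iREC C, D, E and F.

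Reads of these genes can be shared with other rows. KRT8 and KRT18 lie on opposite strands and overlap by 1084 bases, of which 525 are exonic in both, 16.3% of the exon bases of KRT18 and 7.63% of those of KRT8. The library preparation keeps strand, but whether the counting used it is not given in the sources used here, so reads from these bases cannot be assigned for certain. The table lists 15 pseudogene copies of KRT8, whose counts summed to 0.201% to 7.30% of those of KRT8, and 18 copies of KRT18, at 0.0724% to 1.86% of its counts. Adding the copies left the log2 difference of the ratio at 0.39. KRT8P12, a copy on chromosome 3 (160565447 to 160569248), was the only copy whose mean reached 1 CPM in either group. Its range was 2.07 to 4.99 CPM among iEC samples and 2.49 to 4.97 CPM among iREC samples (edgeR adjusted p = 0.894). KRT8P3, chosen after its values were seen, had 3 to 10 counts in the other 7 samples and 40 in iREC F, where KRT8 was also highest. KRT7 overlaps the antisense gene KRT7-AS, which had 3 counts over all iEC samples and 22 over all iREC samples.

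EPCAM (ENSG00000119888, chromosome 2, 47345158 to 47387601), the adhesion molecule of epithelial and pluripotent cells, was low in both groups. It had 1.5, 1.26, 1.01 and 2.08 CPM in iEC C, D, E and F, and 0.720, 1.64, 0.489 and 3.28 CPM in iREC samples C, D, E and F. The iREC samples spread to both sides of the iEC range. The means of 1.46 ± 0.456 and 1.53 ± 1.26 CPM (SD, n = 4 each) gave a log2 fold change of 0.07 ± 0.57 (SE; adjusted p = 0.944 by edgeR), and of -0.62 without iREC F (edgeR adjusted p = 0.393).

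CDH1 (ENSG00000039068, chromosome 16, 68737225 to 68835548), which encodes E-cadherin, had 1 count in iEC C and 0 in the other 3 iEC samples. In iREC C, D, E and F it had 0, 72, 19 and 1246 counts, or 0, 5.14, 1.16 and 81.6 CPM. Sample iREC F held 15.9-fold more than iREC D, and iREC C had none, so the groups overlapped at 0. Against the floor of 3 counts per iEC library, the iREC mean of 22.0 ± 39.8 CPM (SD, n = 4) was at least 113-fold higher, and at least 10.8-fold higher without iREC F. In the fit without a filter its edgeR adjusted p was 0.00594, and 0.000376 to 0.0309 with each sample left out in turn. DESeq2 gave it no p-value, and the authors' deposited table gives none either and lists its adjusted p as 1. VE-cadherin (CDH5), the endothelial cadherin, stood at 517 to 983 CPM in iREC and 1098 to 1642 CPM in iEC, with a log2 fold change of -0.76 ± 0.21 (SE; adjusted p = 0.0298 by edgeR). That call was lost when iREC D or any of iEC D, E and F was left out, with adjusted p up to 0.0785.

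GRHL2 (ENSG00000083307, chromosome 8, 101492432 to 101669726), a grainyhead factor that keeps epithelial genes active, had 0, 0, 2 and 0 counts in iEC C, D, E and F. It had 24, 19, 37 and 6 counts in iREC C, D, E and F, or 1.57, 1.36, 2.26 and 0.393 CPM. Every iREC sample was above every iEC sample, and the lowest iREC level was in F, the sample with the highest keratin levels. Groups did not overlap, with iREC higher, in 14.5% of the genes that passed the filter, and in either direction in 29.1%. GRHL2 was below that filter, so these shares are not over genes of its level. Against the floor of 3 counts per iEC library, the iREC mean of 1.39 ± 0.771 CPM (SD, n = 4) was at least 7.18-fold higher. GRHL2 passed the test in the fit without a filter (edgeR adjusted p = 0.00199) and in DESeq2 (adjusted p = 0.000117). The range was 0.000117 to 0.00770 over these alternatives and with each sample left out.

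ELF3, ESRP1 and ST14 were near the floor. ELF3 (ENSG00000163435, chromosome 1, 202007945 to 202017188), an ETS factor of epithelia, had 2, 1, 0 and 3 counts in iEC C, D, E and F and 1, 1, 0 and 11 in iREC C, D, E and F. ESRP1 (ENSG00000104413, chromosome 8, 94641074 to 94707466), the epithelial splicing regulator, had 0 counts in all iEC samples and 0, 0, 4 and 5 in iREC C, D, E and F. ST14 (ENSG00000149418, chromosome 11, 130159562 to 130210376) had 3, 0, 0 and 1 counts in iEC C, D, E and F and 0, 1, 6 and 0 in iREC C, D, E and F. In the fit without a filter, edgeR's adjusted p was 0.640 for ELF3, 0.181 for ESRP1 and 0.813 for ST14, so no difference was detectable at this depth.

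**Figure D3:**
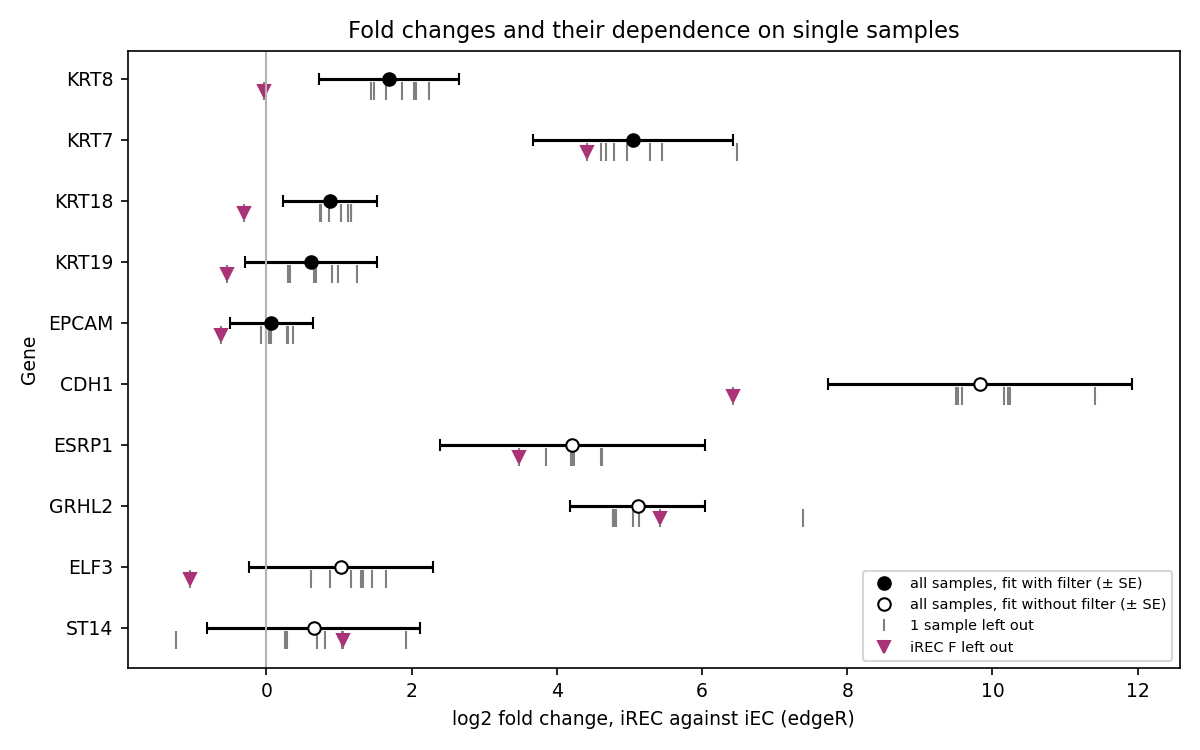
log2 fold changes of the 10 genes, iREC against iEC, from edgeR with all 8 samples (circles with SE; filled, with the filter; open, without it), with each sample left out (grey ticks) and with iREC F left out (triangles). KRT8, KRT18, KRT19, EPCAM and ELF3 lie at or below 0 without iREC F, while KRT7, CDH1, ESRP1 and GRHL2 lie above 0 in every fit drawn; the fitted values of the open circles depend on the prior count.

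Levels of KRT8, KRT18, KRT19 and EPCAM divided by those of the iEC sample of the same letter went in both directions. For KRT8 the quotient was 0.549 for C, 4.15 for D, 0.664 for E and 5.06 for F. KRT18 gave 0.789, 1.70, 0.580 and 3.31, KRT19 0.382, 4.31, 0.419 and 1.95, and EPCAM 0.481, 1.30, 0.486 and 1.58 for C, D, E and F. All 4 genes were lower in iREC for letters C and E and higher for letters D and F. KRT7, with 0 counts in iEC C, was not divided in this way. It was higher in iREC than in iEC for each letter. The design text of the series calls the iREC differentiation matched, but no label says that a letter marks a shared differentiation.

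Profiles over the 8 samples were compared by the root mean square difference of log2 CPM after centring each gene on its own mean, as a description. KRT8 was nearest to KRT19 among the tested members, at 0.49 log2 units, and at 0.62 from KRT18. KRT18 was nearest to EPCAM, at 0.47, again among the 5 tested members. KRT7 was at 2.29 to 3.04 from the other 4. Of 10254 tested genes outside the members whose mean reached 10 CPM in either group, those nearest to KRT8 were AFF3 (0.47), LRP1 (0.49) and ARSI (0.50), the second an endocytic receptor. Nearest to KRT18 were MFGE8, a secreted glycoprotein (0.21), DIP2C (0.31) and TOM1L1 (0.31). AFF3 (0.46), GPRC5A (0.48) and TENM3 (0.53) were nearest to KRT19. OLR1, a receptor for oxidised LDL (0.65), UPK1B, a uroplakin (0.84), and LUM, the matrix proteoglycan lumican (0.87), were nearest to KRT7. TES (0.25), ID3 (0.28) and CARHSP1 (0.34) were nearest to EPCAM. These profiles used a prior count of 2. With a prior count of 0.5, ARSI, UPK1B and CARHSP1 were no longer among the 3 nearest genes.

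Other keratins were few. Of 29 further keratins looked for, 13 were in the table and 2 passed the filter. KRT80 was lower in iREC, at 4.44 ± 1.78 CPM against 9.80 ± 3.46 CPM in iEC (SD, n = 4 each), a log2 fold change of -1.14 ± 0.35 (SE; adjusted p = 0.0389 by edgeR). This call was lost without any of iEC C, D or E or iREC C, D or E, with adjusted p up to 0.112. KRT10, the other tested one, was at 25.2 ± 3.47 CPM in iEC and 17.9 ± 3.04 CPM in iREC (SD, n = 4 each; edgeR adjusted p = 0.0592). Of the 11 that did not pass the filter, 6 were at or under the floor in all samples, and KRT15 reached the highest level, 2.49 CPM.

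Desmosomes anchor keratin filaments to the cell border through linkers such as desmoplakin. Of 16 linker and desmosome genes, 13 were tested. In iREC 7 rose and 1 fell, and their median log2 fold change was 2.0, beside 0.02 over all tested genes. Of all tested genes, 13.2% were called higher and 11.7% lower, the shares to set beside the counts of every list below. Without iREC F, 7 rose, 2 fell and the median was 0.91. In that fit 2223 of all 15783 tested genes rose and 1991 fell. EPPK1, the cytolinker epiplakin that binds keratins, stood at 0.130, 0.253, 0 and 0.501 CPM in iEC C, D, E and F, and at 64.6, 42.0, 40.4 and 93.0 CPM in iREC samples C, D, E and F. All iREC samples were far above all iEC samples, with a log2 fold change of 8.09 ± 0.59 (SE; adjusted p = 4.07e-05 by edgeR). Desmocollin DSC3 was 2.73, 3.48, 3.14 and 10.7 CPM in iEC C, D, E and F, and 7.92, 56.2, 18.6 and 240 CPM in iREC samples C, D, E and F, within iREC in the order of KRT8. Its log2 fold change was 4.01 ± 1.04 (SE; adjusted p = 0.0208 by edgeR), and 2.46 without iREC F. The call was lost without iEC C, D or E, with adjusted p up to 0.0654.

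Desmoplakin (DSP), plakophilins PKP2 and PKP4, desmoglein DSG2 and desmocollin DSC2 made up the other rises. DSP rose from 24.9 ± 15.7 to 192 ± 150 CPM (SD, n = 4 each), and DSC2 from 26.1 ± 10.4 to 113 ± 24.4 CPM (SD, n = 4 each), with edgeR adjusted p of 0.00620 and 0.000990. DSC2 was lowest of the iREC samples in F, at 88.3 CPM. The calls of DSG2 (edgeR adjusted p = 0.0287) and PKP2 (0.0190) were lost in some fits with 1 sample left out: DSG2 without iEC C, D or E or iREC D, with adjusted p up to 0.0778, and PKP2 without iEC E or F, with adjusted p up to 0.0556. PERP, a desmosomal membrane protein, fell from 86.5 ± 50.5 to 22.4 ± 15.1 CPM (SD, n = 4 each), a log2 fold change of -1.95 ± 0.55 (SE; adjusted p = 0.0293 by edgeR). That call was lost without iEC E or F or iREC C, D or E, with adjusted p up to 0.0781. Plectin (PLEC), which links many filament types, was at 493 ± 120 and 500 ± 65.9 CPM (SD, n = 4 each; edgeR adjusted p = 0.949).

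Junction and polarity genes of epithelia leaned toward iREC. A log2 fold change above 0 was found in 9 of the 12 tested, beside 51.6% of all tested genes. Of 22, 12 were tested; 4 rose, 1 fell and the median log2 fold change was 1.57, and without iREC F 3 rose and 1 fell. CLDN7, an epithelial claudin, was 33.0, 29.9, 47.1 and 52.5 CPM in iEC C, D, E and F and 4.78, 4.0, 4.40 and 2.88 CPM in iREC samples C, D, E and F, with no overlap. Its log2 fold change was -3.34 ± 0.25 (SE; adjusted p = 4.65e-05 by edgeR). MARVELD2 and MARVELD3, tight junction proteins, rose with log2 fold changes of 1.84 and 3.46 (edgeR adjusted p = 0.0112 and 0.00142). LSR, a protein of tricellular junctions, rose by 2.13 ± 0.68 on the log2 scale (SE; adjusted p = 0.0465 by edgeR), a call lost without iREC F (log2 fold change 1.20), iREC D or E, or iEC D, E or F, with adjusted p up to 0.105. P-cadherin (CDH3), which was below the filter and chosen after its values were seen, had 0 to 0.190 CPM in iEC and 0.196, 2.64, 1.16 and 48.0 CPM in iREC samples C, D, E and F, within iREC the order of CDH1.

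**Figure D4:**
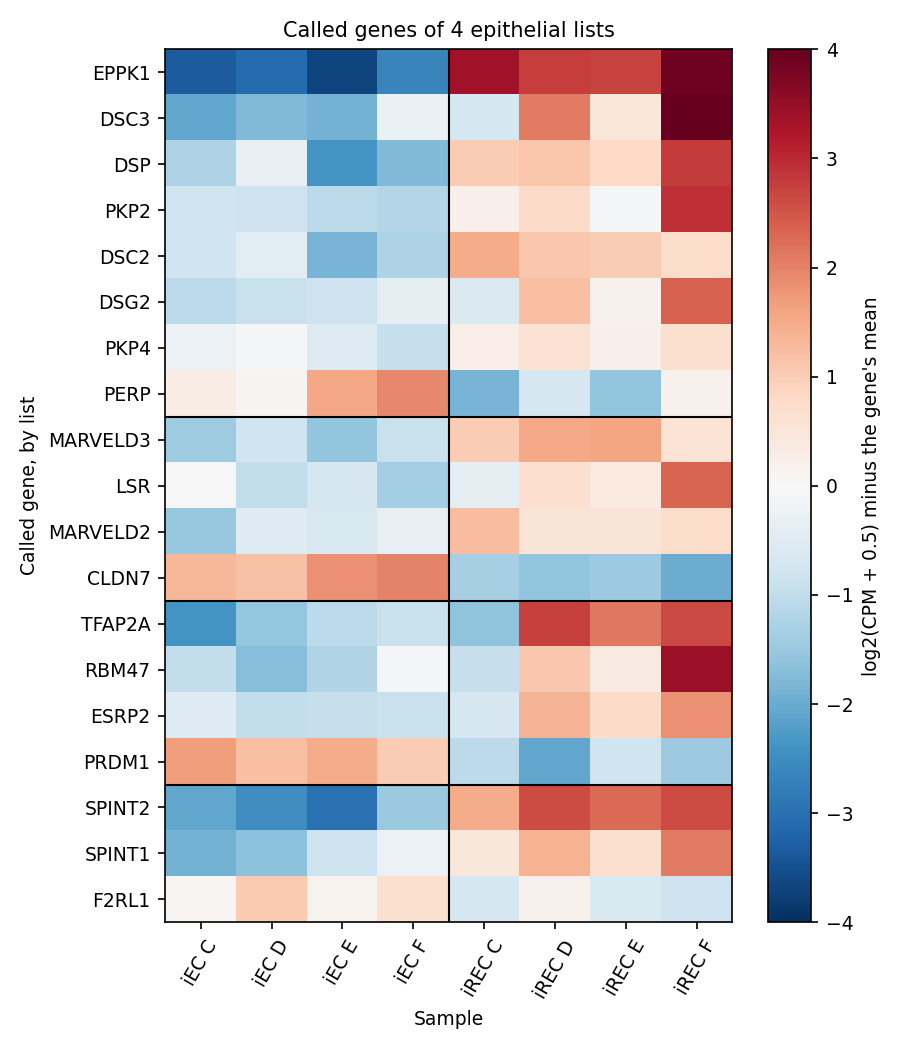
Colour gives log2(CPM + 0.5) minus the mean of the gene over the 8 samples (columns) for 19 called genes (rows) of 4 lists, from top to bottom linkers and desmosome, junction and polarity, transcription and splicing factors, and the matriptase system. EPPK1, DSC2 and SPINT2 were higher in all iREC samples, whereas DSC3 and RBM47 were highest in iREC F, at 240 and 33.0 CPM.

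Among 18 epithelial transcription and splicing factors, 9 were tested; 5 rose, 1 fell and the median log2 fold change was 2.68. Without iREC F, 3 rose and 1 fell. TFAP2A, a factor of surface ectoderm and neural crest, stood at 0.130, 0.632, 1.12 and 1.29 CPM in iEC C, D, E and F and at 0.589, 21.8, 13.9 and 20.4 CPM in iREC samples C, D, E and F. As with KRT7, iREC C was within the iEC range and the other iREC samples were above it, and the log2 fold change was 4.15 ± 0.97 (SE; adjusted p = 0.0130 by edgeR). ESRP2, the paralog of ESRP1, rose from 0.485 ± 0.155 to 3.15 ± 2.15 CPM (SD, n = 4 each; edgeR adjusted p = 0.0136). The splicing factor RBM47 rose by 3.18 ± 1.0 on the log2 scale (SE; adjusted p = 0.0457 by edgeR), with 32.9 CPM in iREC F and 1.11 to 6.07 CPM in the other iREC samples. It was not called without iREC F (log2 fold change 1.55), nor without iREC D or iEC C, D or E, with adjusted p up to 0.121. PRDM1, a repressor, fell from 31.1 ± 6.56 to 4.60 ± 1.78 CPM (SD, n = 4 each), with a log2 fold change of -2.75 ± 0.31 (SE; adjusted p = 0.000316 by edgeR). EHF, TP63 and FOXA2 were at or under the floor in all samples.

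Matriptase is held in check by the inhibitors SPINT1 and SPINT2. While ST14 itself was near the floor, SPINT2 stood at 1.43, 0.948, 0.533 and 2.43 CPM in iEC C, D, E and F and at 22.4, 49.2, 38.7 and 49.5 CPM in iREC samples C, D, E and F. The groups did not overlap, and the log2 fold change was 4.91 ± 0.46 (SE; adjusted p = 0.000123 by edgeR). SPINT1 rose from 0.679 ± 0.628 to 5.27 ± 3.12 CPM (SD, n = 4 each), a log2 fold change of 2.95 ± 0.70 (SE; adjusted p = 0.0143 by edgeR). F2RL1, a protease-activated receptor, fell from 10.1 ± 3.53 to 4.96 ± 1.85 CPM (SD, n = 4 each; edgeR adjusted p = 0.0481). That call was lost without iREC C, E or F or iEC D, E or F, with adjusted p up to 0.119. Of 10 genes of this system, 4 were tested, and MET, the receptor of hepatocyte growth factor, was at 5.99 ± 2.25 and 14.3 ± 11.9 CPM (SD, n = 4 each; edgeR adjusted p = 0.216). PRSS8, the protease prostasin, was at or under the floor in all samples.

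Genes that repress the epithelial program or mark the mesenchymal state also went in both directions. Of 14, 12 were tested. Of these, 3 rose and 4 fell, where 13.2% and 11.7% of all tested genes did. Their median log2 fold change was -0.58. SNAI2, a repressor of CDH1, stood at 2.99, 1.52, 3.73 and 8.02 CPM in iEC C, D, E and F and at 16.7, 32.6, 17.8 and 42.7 CPM in iREC samples C, D, E and F. It rose by 2.76 ± 0.51 on the log2 scale (SE; adjusted p = 0.00426 by edgeR), and was highest in iREC F, where CDH1 was also highest. ZEB2, another repressor of CDH1, rose from 68.0 ± 26.8 to 211 ± 58.4 CPM (SD, n = 4 each; edgeR adjusted p = 0.00367), and within iREC it was lowest in F, at 133 CPM. ZEB1 was at 184 ± 47.2 and 123 ± 49.4 CPM (SD, n = 4 each; edgeR adjusted p = 0.206), and lowest of all 8 samples in iREC F, at 57.9 CPM. FOXC2 rose by 3.04 ± 0.27 on the log2 scale (SE; adjusted p = 9.87e-05 by edgeR). VIM, the filament protein of mesenchymal and endothelial cells, fell from 1565 ± 440 to 588 ± 120 CPM (SD, n = 4 each), a log2 fold change of -1.41 ± 0.23 (SE; adjusted p = 0.00200 by edgeR). TCF4 fell from 242 ± 56.6 to 85.7 ± 10.7 CPM (SD, n = 4 each; edgeR adjusted p = 0.000445), and RBFOX2 from 222 ± 14 to 149 ± 26.5 CPM (SD, n = 4 each; edgeR adjusted p = 0.0143). PRRX1 fell by 2.24 on the log2 scale (edgeR adjusted p = 0.0171), a call lost without iREC D, with an adjusted p of 0.0569.

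Summed mesothelial, mural and mesenchymal, and pluripotency markers were highest in iREC F, as the keratins were. The order of the other iREC samples differed between these lists. The part of such markers in the results was not tested. In bulk RNA, a larger share of cells of another type and more RNA per cell cannot be told apart. Of 10 mesothelial markers, 9 were in the table and 4 were tested, of which 3 rose. Their summed level was 36.0 to 48.7 CPM in iEC and 42.2, 163, 91.3 and 687 CPM in iREC samples C, D, E and F, in the same order as KRT8 within iREC. LRRN4 (498 CPM in iREC F; chosen after its values were seen) took most of that sum in iREC F; in iREC C and E it was at 1.18 and 26.0 CPM, below BNC1 at 37.2 and 48.4 CPM. UPK1B was at 0, 19.6, 9.22 and 21.0 CPM in iREC samples C, D, E and F. It was among the 3 genes nearest to KRT7 with a prior count of 2 but not with 0.5. Its call (edgeR adjusted p = 0.0266) was lost without iEC C, D or E or iREC D, with adjusted p up to 0.0792, and that of LRRN4 (0.0435) without any iEC sample or iREC D or F, with adjusted p up to 0.108. ITLN1 was 0 to 0.260 CPM in iEC and 2.94 to 6.47 CPM in iREC (edgeR adjusted p = 0.000555). The defining mesothelial markers MSLN and UPK3B stayed at or under 0.262 CPM in every sample, and WT1 reached 7.79 CPM in iREC F only.

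Of 14 mural and mesenchymal markers, 12 were tested. Of these, 5 rose and 1 fell, where 13.2% and 11.7% of all tested genes did. The highest of the 8 samples was iREC F for 11 of the 12 markers, and for 14.7% of all tested genes. Their summed level was 255 to 521 CPM in iEC and 1553, 2126, 1346 and 5909 CPM in iREC samples C, D, E and F. Unlike KRT8, this sum was lower in iREC E than in iREC C. POSTN rose by 5.99 ± 0.89 on the log2 scale (SE; adjusted p = 0.00132 by edgeR). LUM rose by 5.80 ± 1.69 on the log2 scale (SE; adjusted p = 0.0333 by edgeR), a call lost without iREC F (log2 fold change 3.50), iREC D or iEC C, D or E, with adjusted p up to 0.0922. RGS5, a pericyte marker, fell by 1.40 on the log2 scale (edgeR adjusted p = 0.0210), a call lost without iEC C or iREC D or E, with adjusted p up to 0.0628.

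Of 12 pluripotency markers, 6 were tested, of which 2 rose and 1 fell, and their summed level was 83.5 to 182 CPM in iEC and 153, 276, 156 and 618 CPM in iREC samples C, D, E and F. LIN28A, at 20.5, 147, 53.7 and 482 CPM in iREC samples C, D, E and F, took most of the sum in F. POU5F1 stayed at or under 1.16 CPM and NANOG at or under 0.122 CPM in every sample. The call of LIN28A (edgeR adjusted p = 0.0242) was lost without iEC D, E or F, with adjusted p up to 0.0691. ZFP42 rose by 3.01 and DPPA4 fell by 0.86 on the log2 scale (edgeR adjusted p = 0.0129 and 0.0166), and the call of DPPA4 was lost without iREC D or E, with adjusted p up to 0.0518. Of 12 endothelial markers, 4 rose, TEK and EMCN among them, and 4 fell, PECAM1 and ROBO4 among them.

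Markers of endoderm, surface ectoderm and retinal pigment epithelium moved less uniformly, and single genes of these lists followed the keratins within iREC. The endoderm and hepatic sum was 54.4 to 77.3 CPM in iEC and 90.4 to 142 CPM in iREC, highest in iREC C, with 4 of 12 markers tested, 1 higher and 1 lower; TTR rose and APOB fell (edgeR adjusted p = 9.64e-05 and 0.00809), and ALB was at or under the floor throughout. SOX17, chosen after its values were seen, took most of the endoderm and hepatic sum in every iEC sample, at 43.1 to 54.5 CPM. In iREC it was at 33.6 to 65.0 CPM (edgeR adjusted p = 0.815). GATA4, chosen after its values were seen, stood at 0.195 to 2.58 CPM in iEC and at 0.393, 7.07, 2.56 and 74.0 CPM in iREC samples C, D, E and F. Within iREC this is the sample order of KRT8. Its log2 fold change was 4.07 ± 1.43 (SE; adjusted p = 0.0658 by edgeR), and 1.41 without iREC F. The surface ectoderm and amnion sum was 20.2 to 69.9 CPM in iEC and 142 to 186 CPM in iREC. Of its 12 markers GATA3 alone was tested, and it rose (edgeR adjusted p = 0.00848), with ISL1, VTCN1, GABRP and TP63 at or under the floor. GATA3 took nearly all of the sum in every iEC sample and in iREC C, D and E (181, 135 and 167 CPM). In iREC F it was at 77.6 CPM, and HAND1 took more of the sum. HAND1, below the filter and chosen after its values were seen, had no count in iEC and 0.327, 6.49, 0.733 and 108 CPM in iREC samples C, D, E and F, within iREC also the order of KRT8. The retinal pigment epithelium sum was 5.79 to 7.34 CPM in iEC and 5.89 to 12.9 CPM in iREC, with 4 of 10 markers tested and 1 higher, and RLBP1 and OTX2 at or under the floor.

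Promoter sequences were looked for in a RefSeq table on GRCh38.p14, which held windows of 250 bases before to 50 after the gene start for ELF3 and KRT8. On both strands, the letters AACCGGTT and AACNGGTT of grainyhead factors, CACCTG of ZEB and SNAI factors, GGGCGG of SP1 and CCGGAA of ETS factors were searched; AACCGGTT is also a match of AACNGGTT. The ELF3 window held 1 CACCTG, found in 20.6% of the 35116 windows of the table, and the KRT8 window held 1 CCGGAA, found in 17.2%. The other letters were not in these windows, and their shares were 0.134%, 1.73% and 45.0% for AACCGGTT, AACNGGTT and GGGCGG. The KRT8 window lies 19851 bases upstream of the start of the KRT8 transcript whose coding sequence was compared with KRT7.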

How the data were processed

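The authors deposited 1 table with read counts per gene and sample; per the submitters' processing notes, fastp and HISAT2 2.0.5 were used with build hg38. The counting program is not given in the sources used here. The deposited normalized signal is the count divided by a size factor per sample, and the deposited FPKM values add gene length. The authors' log2 fold change and p-value columns name no test in the header. For all 10 genes their log2 fold changes were nearly identical to those of DESeq2 run here, so they are not separate evidence. Gene positions matched GENCODE release 29 for all 10 genes and are 1-based on GRCh38.

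From the counts, genes were kept by filterByExpr, scaled by TMM and tested with edgeR 4.0.16 (quasi-likelihood, group as the only term, R 4.3.3), which was first tested on simulated data. The standard error is the log2 fold change divided by the square root of F. A prior count of 2 went into log2 CPM. The ratio of KRT8 to KRT18 was tested by exact permutation over samples. Alternatives were DESeq2 1.42.0, limma-voom (limma 3.58.1), size factors of DESeq2, scaling by library size alone, no filter, a filter that asked for a mean count of 50 and for 1 CPM in every sample of 1 group (the stricter filter), the sample letter as a block and each sample left out. The fits without a filter that leave out a sample, and the lists and named genes without single samples, were added after the data were seen.

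The 10 genes and the gene lists were chosen with earlier results of these data known. Named from each list were the called genes with the largest change, up to 2 in each direction where the mean of either group reached 5 CPM. Picked outside this rule, with their values in view, were DSP, DSC2, DSG2, PKP2, PKP4, PLEC, KRT10, KRT15, MARVELD2, MARVELD3, CDH3 and CDH5. So were ESRP2, MET, ZEB1, ZEB2, VIM, RBFOX2, LRRN4, BNC1, GATA4, HAND1, SOX17 and KRT8P3. MSLN, UPK3B, WT1, POU5F1, NANOG and ALB also lie outside this rule and were named with their values in view. Some genes and sequences are not reported here. Nearest genes were the 3 with the smallest difference of profile. Promoter windows were taken from RefSeq.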

Additional observations from a re-analysis of the deposited data

Results flagged for a closer look

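In 20 groups of 4 values, 1 sample stood far from the other 3 in 2, and chance gives about 1 in 20. CDH1 was at -2.36 log2 CPM in iEC C, where it had 1 count, and at -2.94 in the other 3 iEC samples, where it had 0. GRHL2 was at -2.01 log2 CPM in iEC E, where it had 2 counts, and at -2.94 in the other 3 iEC samples, where it had 0. Both rest on counts at or under the floor of 3. The high levels of KRT8, KRT18 and CDH1 in iREC F did not meet this criterion on the log2 scale.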

How the results depend on the processing

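The number of the 10 genes called was 1 in the fit reported, 3 with no filter, 2 by DESeq2, and 0 with the stricter filter or by limma-voom. Calls over all genes in these fits were 3829 (25.0% of tested genes), 3887 (12.8%), 4954, 3281 and 3773, in the same order. The number of the 10 genes called ran from 0 to 2 with each sample left out, where 2660 to 4214 of all genes were called. Shares of tested genes are not given for every fit, so these counts describe the 10 genes and support nothing further. Without iREC F the log2 fold change turned to -0.029 for KRT8, -0.30 for KRT18, -0.54 for KRT19 and -0.62 for EPCAM, the lowest with a sample left out; the highest were 2.24, 1.17, 1.25 and 0.37. EPCAM also turned to -0.25 by limma-voom, -0.19 with the replicate block, -0.0049 without iEC D and -0.081 without iEC E. In fits without a filter, ELF3 turned to -1.06 without iREC F and ST14 to -1.25 without iREC E. The cause was not tested in any of these. KRT7 kept a log2 fold change of 4.42 to 6.48 with each sample left out and of 4.99 to 5.17 in the other fits. KRT7 was not tested under the stricter filter. The log2 difference of the KRT8 to KRT18 ratio ran from 0.13 to 0.78 with each sample left out, with exact permutation p from 0.114 to 0.857.

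No label says that a letter marks a shared batch, so the letters were not taken as pairs. Over the tested genes, samples of the same letter deviated together weakly (correlations of 0.168 for C, -0.079 for D, 0.029 for E and 0.250 for F). Such correlations over all tested genes cannot decide whether single genes were paired. With the letter as a block, 3334 of the 15330 tested genes and 1 of the 10 were called. KRT7 then had a log2 fold change of 5.17 and an edgeR adjusted p of 0.00306. The block lowered the log2 fold change to 0.74 for KRT8, 0.33 for KRT18 and 0.11 for KRT19. Their edgeR adjusted p was 0.458, 0.606 and 0.920. By limma-voom these log2 fold changes were 0.73, 0.34 and 0.11. Over all genes, calls numbered 3281 to 4954 in the alternatives with all samples and 2660 to 4214 with a sample left out, lowest without iREC D, where 1171 rather than 1798 genes were called lower. CDH1, ESRP1, ELF3 and ST14 had 3 or fewer counts in most samples, so their fitted fold changes depend on the prior count. The depth allows no statement on differences among counts at or under 3.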
